A study of Mus musculus with 4 samples.

Results

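The amino acid transporter families of mouse liver were followed here through every entry of the gene table whose symbol belongs to solute carrier families Slc1, Slc3, Slc6, Slc7, Slc36, Slc38 or Slc43. This choice by name gave 63 of 21827 entries and 62 symbols, with 7 entries of Slc1, 2 of Slc3, 19 of Slc6, 16 of Slc7, 4 of Slc36, 12 of Slc38 and 3 of Slc43. Slc38a9 has 2 entries. Slc7a6os matches by name alone: it is named for lying opposite Slc7a6 and encodes no carrier. The livers came from untreated mice of the CD-1 stock, which is outbred, at 8 weeks of age; the groups differ in sex alone, and no transgene or drug is involved. RNA of 12 males and 12 females was combined into 2 pools of 6 livers per sex, and poly-A RNA of the 4 pools was sequenced with a strand-specific preparation. The comparison addresses which of these genes differ between male and female liver.

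Amino acids cross membranes through carrier proteins, and each family couples transport in its own way. Slc1 carriers take up glutamate or exchange small neutral amino acids, Slc6 carriers use sodium and chloride, and some Slc36 carriers use protons. Slc38 carriers use sodium and favour glutamine and alanine, and Slc43 carriers let large neutral amino acids pass down their gradient. Most Slc7 proteins are light chains that reach the membrane only when bound to a heavy chain of the Slc3 family, while the cationic carriers of Slc7 work alone. In liver, periportal hepatocytes take up amino acids and break down glutamine, and a thin layer of pericentral hepatocytes takes up glutamate and makes glutamine from it.

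The table holds 1 value per gene and sex, so the spread between pools could not be computed, and every level below is the authors' log2 RPKM (reads scaled by gene length and library depth). The floor of that scale implies about 11241814 reads for male and 14719686 for female liver, 1.31 times as many. The table listed 14 of the 63 entries at this floor in both sexes and 12 in a single sex, which left 37 with a ratio between the sexes. A member is called where the adjusted p in the authors' deposited table is under 0.05. Where a number of reads is given, it was recovered from the level and the transcript length, and its exact 95% interval (Clopper-Pearson) covers counting error only. The tissue label was checked against hepatocyte markers, among which Alb stood at log2 RPKM 14.82 in male and 15.52 in female liver and Apoa1 at 12.68 and 12.09.

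Of the 37 compared members, 7 were called, 4 toward males and 3 toward females. Over all 13763 compared genes the authors' deposited table gives 17.4% called, 7.21% toward males and 10.2% toward females, so the members' share of 18.9% lies near the background. The male-higher members were the cationic carrier Slc7a2, the neutral carrier Slc38a4, the light chain Slc7a5 and the short entry of Slc38a9. The female-higher members were the glutamate carrier Slc1a2, the neutral exchanger Slc1a4 and the large neutral carrier Slc43a2. The median log2 ratio of male over female was -0.09 for the compared members and -0.02 for all compared genes. Only 2 called members differed at least 2-fold, Slc1a4 and the short Slc38a9 entry, which is 5.41% of the compared members against 7.88% of all compared genes. Among the 24 members whose log2 RPKM reached 1 in a sex, 6 were called (25.0%), against 17.2% of such genes in the whole table. In bulk tissue, fewer cells of a type and less RNA per cell cannot be told apart.

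**Figure D1:**
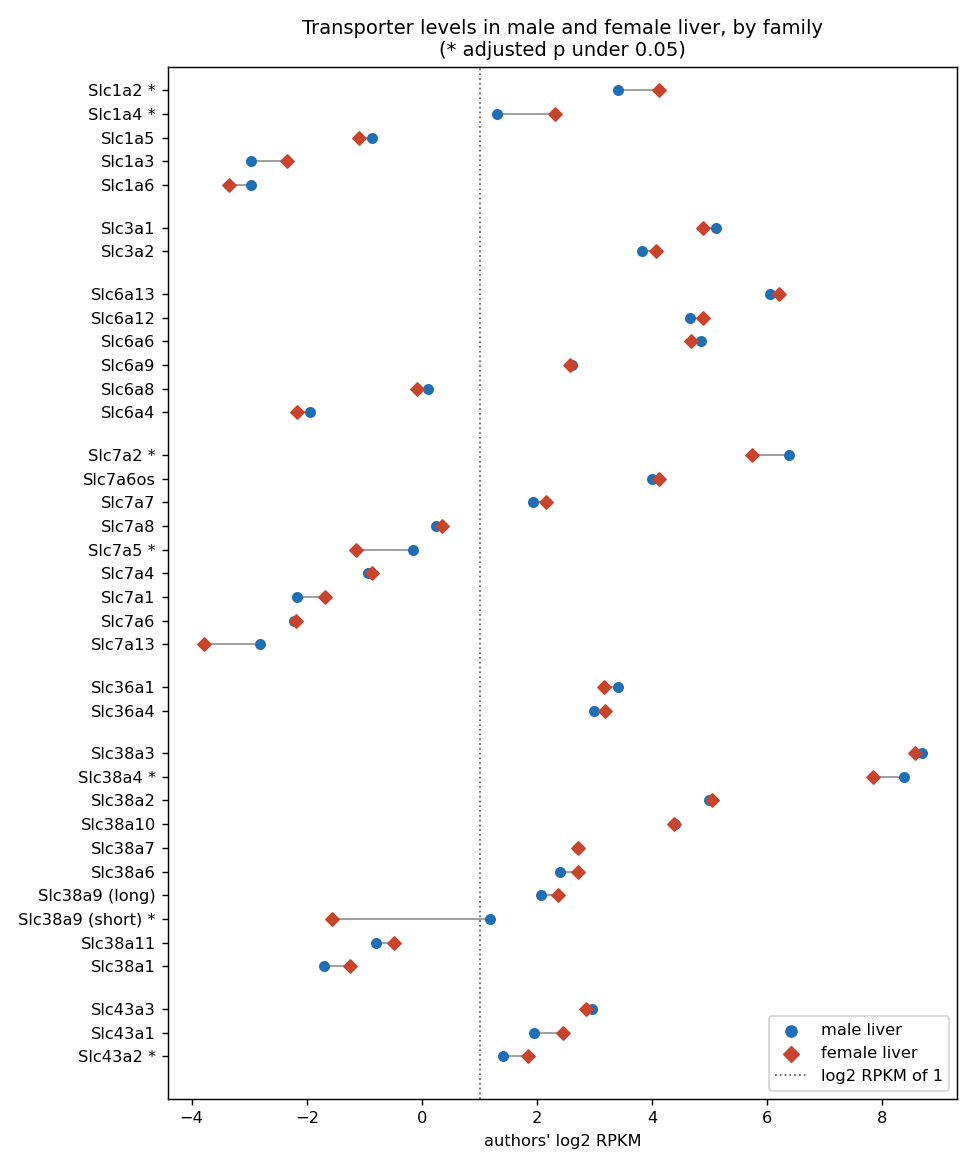
Authors' log2 RPKM (x axis) of the 37 compared members in male (circles) and female (diamonds) liver, grouped by family and ordered by level, with called members starred. Levels span from -3.78 to 8.68, and the widest gap between the sexes belongs to the short entry of Slc38a9. No error bars can be drawn, because each sex has 1 value.

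**Figure D2:**
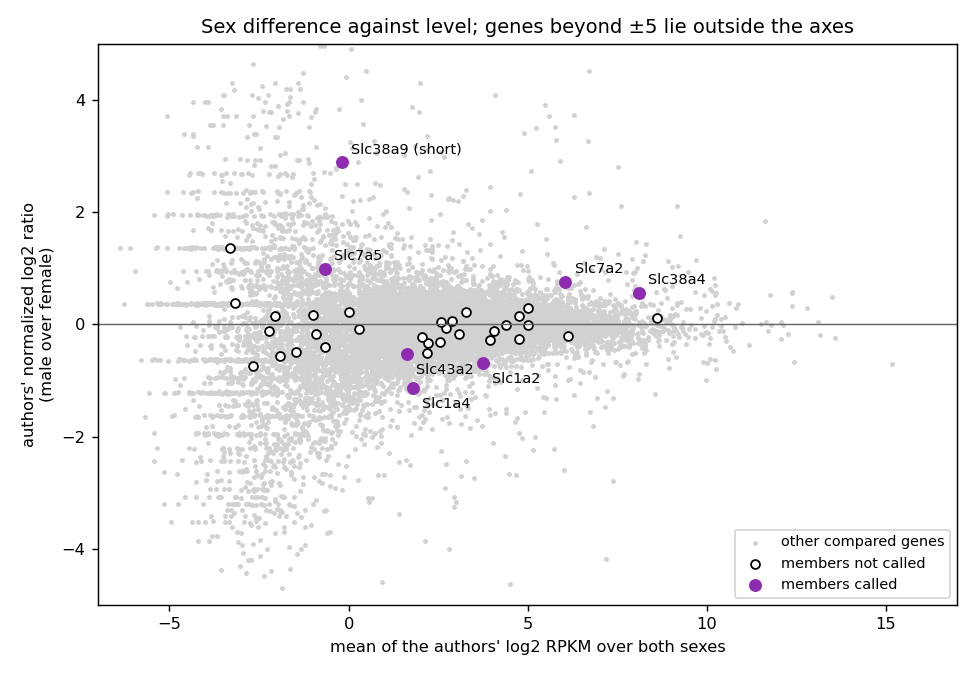
Log2 ratio of male over female as the authors normalized it (y axis) against the mean log2 RPKM of both sexes (x axis) for all compared genes (grey) and for the members, called (filled) or not (open). The 7 called members lie at levels from -0.66 (Slc7a5) to 8.11 (Slc38a4).

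Promoter windows of 4 members are shown: they belong to female-higher carriers of 1 family (Slc1a4 and Slc1a2), to the start of Slc38a9, the gene whose separate short entry differed most toward males, and to the gene whose window held the most matches (Slc7a11). Each runs from 250 bases before to 50 bases after the RefSeq start, read 5′ to 3′ on the gene's strand. Capitals mark matches on either strand to TGATGNAA, the element bound by ATF4 with C/EBP proteins when amino acids are short, and to TTCNNNGAA, the site of STAT5, which acts downstream of growth hormone. Coordinates are those of GRCm38.p6, another build than the table's mm9.
Slc1a4, chr11:20332664-20332963, minus strand: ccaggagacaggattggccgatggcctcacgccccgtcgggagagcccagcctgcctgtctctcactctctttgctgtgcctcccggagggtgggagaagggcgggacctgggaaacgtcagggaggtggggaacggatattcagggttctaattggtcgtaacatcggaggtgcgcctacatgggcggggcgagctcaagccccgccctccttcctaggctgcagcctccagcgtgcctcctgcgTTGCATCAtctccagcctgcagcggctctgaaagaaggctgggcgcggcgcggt
Slc1a2, chr2:102706188-102706487, plus strand: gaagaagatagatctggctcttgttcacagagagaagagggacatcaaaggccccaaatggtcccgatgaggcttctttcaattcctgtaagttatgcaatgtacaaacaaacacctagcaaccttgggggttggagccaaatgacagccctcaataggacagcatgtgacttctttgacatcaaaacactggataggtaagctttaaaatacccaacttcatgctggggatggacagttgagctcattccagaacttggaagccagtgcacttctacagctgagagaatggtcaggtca
Slc7a11, chr3:50443564-50443863, minus strand: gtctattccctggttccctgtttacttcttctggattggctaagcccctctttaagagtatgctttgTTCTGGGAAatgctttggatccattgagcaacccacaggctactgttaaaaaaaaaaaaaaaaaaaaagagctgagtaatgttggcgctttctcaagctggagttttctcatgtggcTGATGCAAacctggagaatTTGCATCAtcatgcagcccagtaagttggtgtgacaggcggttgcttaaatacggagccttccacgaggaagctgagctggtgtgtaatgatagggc
Slc38a9, chr13:112660516-112660815, plus strand: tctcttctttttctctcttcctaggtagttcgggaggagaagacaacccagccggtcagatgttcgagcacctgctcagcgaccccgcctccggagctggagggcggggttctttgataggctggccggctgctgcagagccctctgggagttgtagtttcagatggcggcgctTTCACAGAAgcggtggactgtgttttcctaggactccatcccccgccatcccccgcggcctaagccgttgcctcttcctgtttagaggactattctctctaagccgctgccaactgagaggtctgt
The Slc1a4 window holds 1 TGATGNAA match, on the opposite strand from 4 bases before to 3 bases after the start. The Slc7a11 window holds 2, on opposite strands, from 66 to 59 and from 47 to 40 bases before the start, and 1 TTCNNNGAA match from 183 to 175 bases before it. The Slc38a9 window, which is that of the gene's own start and not of the short entry, has 1 TTCNNNGAA match from 76 to 68 bases before the start. In the Slc1a2 window neither string occurs. Whether its RefSeq start is that of the measured entry was not established, so this absence cannot be read as a trait of that entry's promoter. Of the 4 printed windows, only 3 had their last bases in a transcript of the gene. Across the 44 members with a window, TGATGNAA occurred in 3 (Slc1a4, Slc7a7 and Slc7a11) and TTCNNNGAA in 4 (Slc1a3, Slc7a1, Slc7a11 and Slc38a9). Over all 27025 genes of the promoter table the shares were 4.51% and 9.55%. A match describes letters in the window and is not evidence of binding.

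The Slc38 family carried most of the transporter RNA. Its summed level was 813 RPKM in male and 679 RPKM in female liver, which is 71.1% and 68.1% of the sum over all members. The sum over all members includes Slc7a6os, which encodes no carrier. Slc38a3, the glutamine carrier of system N, stood highest of all members, at log2 RPKM 8.68 in male and 8.56 in female liver (9, 107553486 to 107569705, mm9). Its ratio was 1.08-fold with an adjusted p of 0.536 in the authors' deposited table, and it was not called. Slc38a4, a carrier of neutral and cationic amino acids and a paternally expressed imprinted gene, was second, at log2 RPKM 8.37 in male and 7.84 in female liver (15, 96825254 to 96886387, mm9). It was 1.47-fold higher in males per the authors' deposited table (adjusted p = 0.00317). About 14613 and 13270 implied reads stand behind it, and counting alone allows 1.41-fold to 1.48-fold. The level of Slc38a4 was 0.806 times that of Slc38a3 in male and 0.608 times in female liver, on the per-length RPKM scale. Together these carriers made up 64.8% of the members' summed RPKM in male and 60.8% in female liver.

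Slc38a4 lies in a run with Slc38a2 and Slc38a1 on chromosome 15 (96401849 to 96886387, mm9; 485 kb) with no other entry of the table inside. Slc38a2, a system A carrier of small neutral amino acids, stood at log2 RPKM 4.99 in male and 5.03 in female liver, and Slc38a1, a related carrier, at -1.71 and -1.25. The adjusted p in the authors' deposited table was 0.947 for Slc38a2 and 0.308 for Slc38a1. In this run the sex difference was thus called for 1 of 3 neighbours, and no test of the difference between them was run. Over all compared genes 17.4% were called, and a run of 3 is too small to set against that share. Slc38a1 rests on about 24 implied reads in male and 44 in female liver. Slc38a10, Slc38a7, a lysosomal glutamine carrier, and Slc38a6 had log2 RPKM values of 4.40, 2.72 and 2.39 in male liver and 4.38, 2.71 and 2.71 in female liver, and none was called. Slc38a11 lay lower, at -0.80 in male and -0.49 in female liver.

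Slc38a9, the lysosomal arginine sensor that signals to mTORC1, has a long and a short entry, whose levels differ in opposite directions between the sexes; no test of that contrast was run. The long entry (13, 113450984 to 113523106, mm9) stood at log2 RPKM 2.06 in male and 2.37 in female liver and was not called (1.26-fold, adjusted p = 0.208 in the authors' deposited table). The short entry begins 754 bases after its end, on the same strand (13, 113523861 to 113525265, mm9), and stood at 1.19 in male and -1.56 in female liver. It was 7.42-fold higher in males per the authors' deposited table (adjusted p = 4.14e-06). With its span of 1405 bases taken as its length, these levels correspond to 35 reads in male and 6 reads in female liver if the entry is unspliced, so that counting alone allows 3.18-fold to 22.2-fold. The length was not checked against an annotation, and the entry's name alone ties it to Slc38a9. The next entry downstream, Ppap2a, begins 65836 bases further on, and its levels were 3.91 and 4.05 (adjusted p = 0.582 in the authors' deposited table).

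Among the Slc7 genes grouped as cationic carriers, several of which bring in arginine, lysine and ornithine, Slc7a2 dominated. It stood at log2 RPKM 6.38 in male and 5.73 in female liver (8, 41947766 to 42007662, mm9). The authors' deposited table gives it as 1.68-fold higher in male liver (adjusted p = 7.09e-05). By implied reads, approximate here because the length was taken by symbol, counting alone allows 1.51-fold to 1.64-fold; this range uses implied depth in place of the authors' scaling, and their fold lies just outside it. Slc7a1, the widely expressed cationic carrier, stood at -2.17 in male and -1.68 in female liver, with 17 and 32 implied reads, and Slc7a4 at -0.94 and -0.87. Neither was called. Slc7a3 had 2 reads in male and none in female liver, and Slc7a14 had none in either sex.

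The heavy chains were abundant beside most of their partners. Slc3a1, the heavy chain of the cystine carrier, stood at log2 RPKM 5.11 in male and 4.88 in female liver, and Slc3a2, the heavy chain of most other light chains, at 3.83 and 4.07. Their adjusted p-values in the authors' deposited table were 0.14 for Slc3a1 and 0.176 for Slc3a2, with a ratio of 1.22-fold in opposite directions. Slc7a9, the partner of Slc3a1 in the kidney, had no reads in either sex, which allows at most 0.147 RPKM in male and 0.112 RPKM in female liver by a limit of 3 reads. The level of Slc3a1 was thus at least 235-fold higher than that of Slc7a9 in males and at least 262-fold higher in females. Slc7a13, another partner of Slc3a1, had about 2 reads in male and 1 read in female liver. Slc3a2 stood at 14.2 RPKM in male and 16.8 RPKM in female liver, 2.29 and 2.62 times the summed level of its partners Slc7a5, Slc7a6, Slc7a7, Slc7a8, Slc7a10 and Slc7a11.

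Of the light chains, Slc7a7, which exports cationic amino acids in exchange for neutral ones, stood highest, at log2 RPKM 1.93 in male and 2.15 in female liver, followed by Slc7a8 at 0.25 and 0.36. Neither was called. Slc7a5, the LAT1 carrier of leucine and other large neutral amino acids, was called at a low level, -0.16 in male and -1.16 in female liver (8, 124405052 to 124431586, mm9). It was 1.99-fold higher in males per the authors' deposited table, with an adjusted p of 0.0309, the called member nearest to the threshold. About 34 and 22 reads stand behind it, with the length taken by symbol, and counting alone allows 1.15-fold to 3.63-fold. Slc7a6 stood near -2.2 in both sexes, with 8 and 11 reads, and is reported apart from its neighbour Slc7a6os, at 16.0 and 17.3 RPKM; no source used here says whether counting used strand, and their entries do not overlap. Slc7a11, the cystine and glutamate exchanger, had 3 reads in male and none in female liver. Slc7a15 had 3 reads in female and none in male liver, and Slc7a10 and Slc7a12 had none in either sex. Of markers of blood cells, which also carry Slc7a5, none of 5 lymphocyte genes was called (summed level 2.07 RPKM in male and 1.44 RPKM in female liver). Of 4 compared erythroid genes only Alas2 was called (6.67-fold higher in males per the authors' deposited table; summed level of the list 171 RPKM in male and 96.3 RPKM in female liver). Alas2 makes up most of the gap in that sum, at 86.2 RPKM in male and 13.4 RPKM in female liver. The globin genes stood at 73.7 and 73.8 RPKM (Hbb-b1) and at 10.9 and 8.83 RPKM (Hba-a1). The part of blood cells in the Slc7a5 result was not tested.

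In the Slc1 family the called differences went to the female side. Slc1a2, the glutamate carrier of pericentral hepatocytes, stood at log2 RPKM 3.40 in male and 4.11 in female liver (2, 102498840 to 102630941, mm9). It was 1.61-fold higher in females per the authors' deposited table (adjusted p = 0.000353). Some 1380 and 2948 implied reads stand behind it, and counting alone allows 1.53-fold to 1.74-fold. Slc1a4, an exchanger of alanine, serine, cysteine and threonine, stood at 1.30 in male and 2.31 in female liver (11, 20202183 to 20232716, mm9). It was 2.19-fold higher in females per the authors' deposited table (adjusted p = 2.82e-06), and with 108 and 286 implied reads counting alone allows 1.62-fold to 2.55-fold. The summed level of the family was 13.9 RPKM in male and 23.0 RPKM in female liver.

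The other Slc1 genes were near the limit of detection. Slc1a5, the ASCT2 glutamine exchanger, stood at log2 RPKM -0.87 in male and -1.10 in female liver, with 16 and 18 reads. Slc1a3, a glutamate carrier known from glia, had 5 and 11 reads, Slc1a6 had 2 in each sex, Slc1a1 had 1 read in male and none in female liver, and Slc1a7 had none in either. None of these was called. For Slc1a3 the ratio of female over male reads was 1.68, and counting alone allows 0.538 to 6.17, so that a difference of that size was not detectable at this depth. For Slc1a5, with more reads, counting alone allows 0.555-fold to 2.42-fold for male over female.

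Most other listed pericentral markers also stood higher in females. Over all compared genes, 10.2% were called toward females and 7.21% toward males, the shares beside which the counts below stand. Of the 5 other compared markers on the pericentral list, 4 were higher in females per the authors' deposited table. These were Lgr5 (2.64-fold), Oat, the ornithine aminotransferase (2.28-fold), Rhbg, an ammonium carrier (1.62-fold), and Axin2 (1.54-fold), all in the authors' deposited table. Cyp2e1 was not called (adjusted p = 0.852 in the authors' deposited table), and since it outweighs the others, the summed level of the list was 3388 RPKM in male and 3437 RPKM in female liver. Glul was not analysed here. Of 5 periportal markers, Cyp2f2 was higher in male and Gls2 in female liver. The summed level was 1959 RPKM in male and 1582 RPKM in female liver. Cyp2f2 alone stood at 984 RPKM in male and 523 RPKM in female liver, so the sum follows this gene. By their levels Sds and Hal leaned toward females and Pck1 toward males, none of them called. Markers of other cells also stood higher in females per the authors' deposited table, with 4 of 6 called for Kupffer cells (summed level 139 RPKM in male and 177 RPKM in female liver) and 2 of 5 for stellate cells (38.8 and 55.7 RPKM). None of 5 sinusoidal endothelial markers was called (124 and 134 RPKM), and cholangiocyte markers went both ways, with Sox9 female-higher and Spp1 male-higher (46.5 and 31.5 RPKM). The part of these cells in the differences of Slc1a2, Slc1a4 and Slc43a2 was not tested.

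No Slc6 gene was called, although 3 of them were among the most abundant members. Slc6a13, a carrier of GABA and taurine, stood at log2 RPKM 6.05 in male and 6.21 in female liver, and its neighbour Slc6a12, a betaine and GABA carrier, at 4.66 and 4.88. Their entries lie within 65.5 kb of chromosome 6 (121250314 to 121315791, mm9). Slc6a6, the taurine carrier, stood at 4.84 in male and 4.68 in female liver. The adjusted p-values in the authors' deposited table were 0.27 for Slc6a13, 0.202 for Slc6a12 and 0.447 for Slc6a6, with ratios of at most 1.19-fold. These carriers of osmolytes made up 93.7% of the family's summed level in male and 94.6% in female liver. Slc6a9, the glycine carrier, stood at 2.61 and 2.56, and Slc6a8, the creatine carrier, at 0.11 and -0.09. Slc6a4, the serotonin carrier, had 7 and 8 reads.

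The neutral amino acid carriers of Slc6, several of which absorb amino acids in gut and kidney, had next to no RNA in liver. Slc6a14, Slc6a18 and Slc6a19 had no reads in either sex. Slc6a20a had 2 reads and Slc6a17 and Slc6a20b had 1 read each in male liver, and Slc6a15 had 1 read in female liver. Tmem27, a partner of some of these carriers, lay at the floor in male liver and at log2 RPKM -1.54 in female liver. It was therefore not compared (adjusted p = 0.0651 in the authors' deposited table). The neuronal carriers Slc6a2 and Slc6a11 had no reads, and Slc6a3 and Slc6a5 had 1 read each in male liver.

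Among the Slc36 carriers, Slc36a1, which exports small neutral amino acids from lysosomes, stood at log2 RPKM 3.40 in male and 3.17 in female liver. Slc36a4 stood at 2.99 and 3.17. Neither was called (adjusted p = 0.272 for Slc36a1 and 0.511 for Slc36a4 in the authors' deposited table). Slc36a2 and Slc36a3, which lie beside Slc36a1 on chromosome 11, had 1 read in female liver and none.

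In the Slc43 family, both carriers of large neutral amino acids stood higher in female liver by their levels, and 1 of them was called. Slc43a2, or LAT4, stood at log2 RPKM 1.42 in male and 1.84 in female liver (11, 75345196 to 75391074, mm9). It was 1.44-fold higher in females per the authors' deposited table (adjusted p = 0.016), and with 206 and 362 implied reads counting alone allows 1.13-fold to 1.60-fold. Slc43a1, or LAT3, stood at 1.95 in male and 2.45 in female liver and lay just outside the threshold in the authors' deposited table (1.43-fold, adjusted p = 0.0558). The ratios of this pair were nearly equal, and the call of one and not the other does not show that they differ. Slc43a3, a carrier of purine nucleobases rather than amino acids, stood at 2.95 and 2.85 (adjusted p = 0.828 in the authors' deposited table).

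Summed by family, the Slc7 level was 107 RPKM in male and 78.0 RPKM in female liver, of which Slc7a2 accounts for most. That sum includes Slc7a6os, which encodes no carrier, at 16.0 RPKM in male and 17.3 RPKM in female liver. The Slc1 sum in male liver was 0.605 times that in female liver, while the Slc3, Slc6 and Slc36 sums were 1.05, 0.941 and 1.03 times as high. These sums carry no error.

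**Figure D3:**
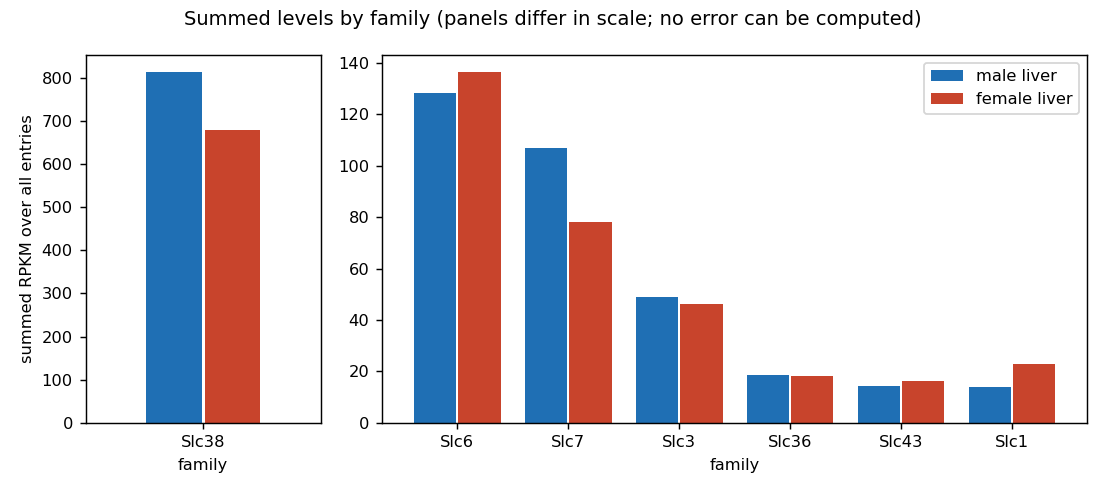
Summed RPKM over all entries of each family (y axis) in male and female liver, with Slc38 in a panel of its own scale. The Slc7 sum includes Slc7a6os, which encodes no carrier. Bars start at 0 and stand for 1 value per sex: Slc38 and Slc7 sums are higher in male liver (813 and 107 RPKM) than in female liver (679 and 78.0 RPKM), and the Slc1 sum is lower (13.9 against 23.0 RPKM).

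The 14 members at the floor in both sexes include Slc1a7, Slc6a2, Slc6a11, Slc6a14, Slc6a18, Slc6a19, Slc7a9, Slc7a10, Slc7a12, Slc7a14, Slc36a3, Slc38a5 and Slc38a8. A count of 0 allows up to 3 reads, which for these genes is between 0.0232 and 0.154 RPKM. Of the 12 members seen in a single sex, 9 had their reads in male and 3 in female liver, with 1 to 5 reads each.

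Of 37 listed genes that work beside these carriers, 36 were found in the table and 32 compared. Among those compared, 6 were higher in males and 4 in females, a larger share than the background of 17.4%. The list was chosen with earlier results of these data known, and the difference from the background was not tested. Among other carriers the largest difference was that of Slc17a8, the vesicular glutamate carrier VGLUT3, at log2 RPKM 3.95 in male and 1.63 in female liver (4.7-fold, adjusted p = 1.1e-23 in the authors' deposited table). Slc15a4, a lysosomal carrier of histidine and peptides (1.64-fold), and Slc17a5, the lysosomal sialic acid carrier (1.33-fold, adjusted p = 0.0479), were higher in males per the authors' deposited table. Slc15a3, a lysosomal carrier close to Slc15a4, was 1.64-fold higher in females per the authors' deposited table. Slc16a10, which carries aromatic amino acids, was not called at 4.55 and 4.48.

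Genes of amino acid sensing went both ways: of 20 genes, 3 were called toward males and 1 toward females, a share near the background of 17.4%. Asns, the asparagine synthetase and a target of ATF4, stood at log2 RPKM 0.19 in male and -1.14 in female liver (2.69-fold, adjusted p = 0.00487 in the authors' deposited table). Trib3, an inhibitor of ATF4 signalling and itself a target, was 1.67-fold higher in male liver (adjusted p = 0.0376), and Sesn1, a leucine sensor of the sestrin family, 1.5-fold higher in male liver (adjusted p = 0.0103) in the authors' deposited table. Ddit3, the CHOP factor and also a target of ATF4, was 1.64-fold higher in female liver (adjusted p = 0.00978) in the authors' deposited table. Atf4 itself stood at 6.03 and 5.85 and was not called. Among glutamine and glutamate enzymes, Gls2, the liver glutaminase (1.31-fold), and Glud1, glutamate dehydrogenase (1.30-fold), were higher in females per the authors' deposited table.

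**Figure D4:**
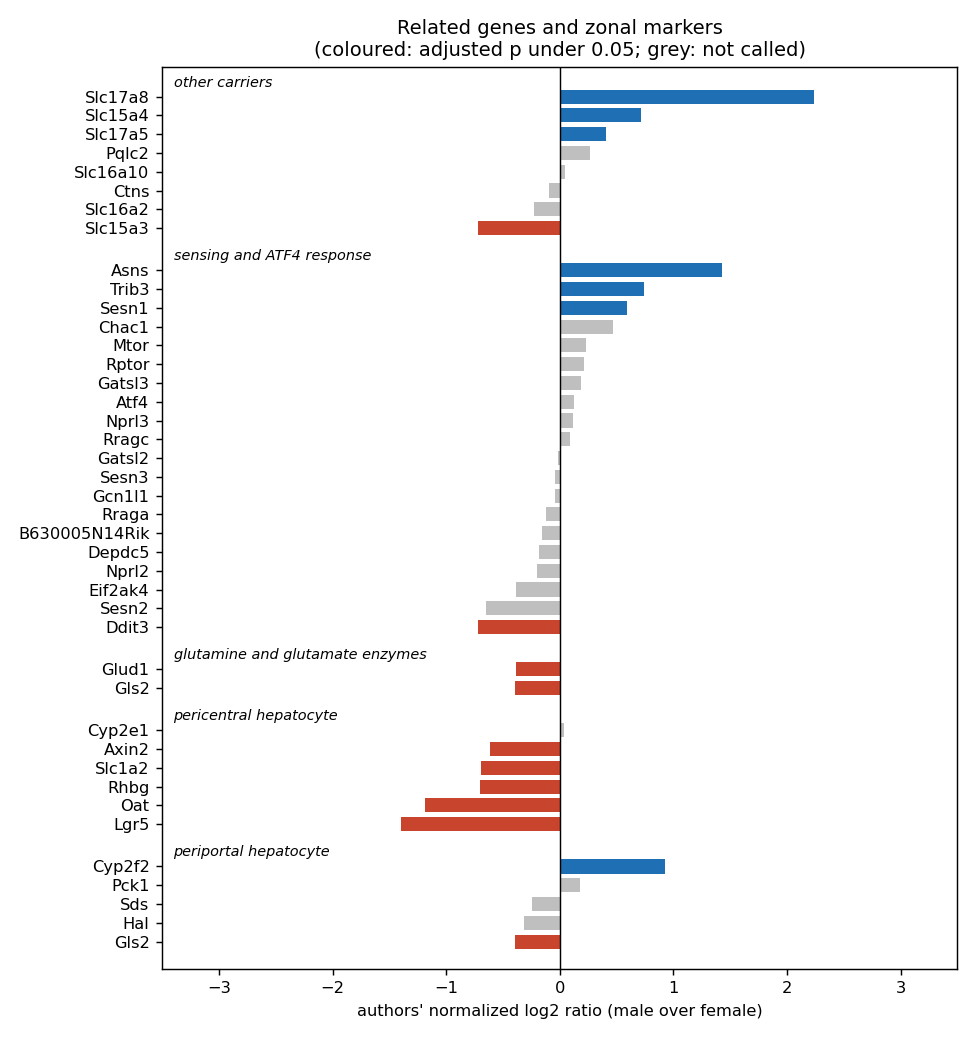
Log2 ratio of male over female as the authors normalized it (x axis) for compared related genes and zonal markers, coloured where the adjusted p is under 0.05 (blue male-higher, red female-higher) and grey where not. The called ATF4 targets lie on both sides (Asns and Trib3 male-higher, Ddit3 female-higher), and 5 of 6 pericentral markers, Slc1a2 included, lie on the female side.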

How the data were processed

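RNA of 4 pools of 6 livers, 2 pools per sex, is summarised in 1 table. Bowtie, edgeR and the build mm9 are named, with neither version nor role, in the submitters' processing notes; read assignment and use of strand are not given in the sources used here. Per the file headers, the table gives the authors' log2 RPKM per sex, their normalized log2 ratio of male over female, the linear ratio, a signed fold change as a score, and an adjusted p-value by a method that no source used here names. A liver-expressed flag (log2 RPKM of 1 or more) and the authors' sex-bias class (adjusted p below 0.01) complete it. Pools are not separated, so no gene was tested anew. Entries with a ratio of 1 at the floor in both sexes (6590), with no level (14) or with the floor in 1 sex while the other held a multiple of it that was whole to 0.3% (1460) were not compared; the adjusted p of 0.026 at the floor was disregarded.

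Implied depth came from 1058 floor-level olfactory receptor genes and their spans, with the value added by the authors taken as 1 read. Implied reads use GENCODE vM21 transcript lengths (44 members by RefSeq accession, 17 approximately by symbol), used for lengths alone since its build differs. Of 16 low values checked with a length by accession, 14 lay within 0.1 of a whole read. The recovery was run on simulated data built with the same lengths, implied depths and added read. That run cannot show whether these settings hold for the real data. A few listed genes are not reported here by name. Named genes are all called members, the 12 of highest level, the highest of each family and all called related genes; the other members are also given, chosen after their values were seen. Members, lists and tests were chosen with earlier results of these data known. Of the listed related genes and markers, a few were matched through older symbols, among them Tmem27, and Glul was not found. Coordinates are those of the table with a 1-based start. Promoters are from RefSeq (GRCm38.p6). Python 3.11.15, pandas 2.3.3, NumPy 2.4.6, SciPy 1.17.1 and matplotlib 3.10.9 were used.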

Additional observations from a re-analysis of the deposited data

Results flagged for a closer look

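Slc6a7, a proline carrier, lay at the floor in female liver and was left out of the comparison, but had 5 implied reads in male liver, above the 3 reads that a count of 0 allows. The other members seen in a single sex, of 12 in all, did not exceed that limit. Its adjusted p in the authors' deposited table was 0.128.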

How the results depend on the processing

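With a ratio of at least 2-fold required, 2 members were called, 1 male-higher and 1 female-higher, in place of 7, 4 and 3. Under the other alternatives (an adjusted p under 0.01, a log2 RPKM of at least 1, carriers of proteinogenic amino acids only, and, chosen after seeing the data, without Slc7a6os and the short Slc38a9 entry) between 5 and 7 members were called. In the order given, 13.5%, 25.0%, 23.3% and 17.1% of the compared members were called. The shares of all compared genes were 10.2%, 17.2%, 17.4% and 17.4%. With at least 2-fold required, the shares were 5.41% of members and 7.88% of all compared genes. The plain difference of log2 RPKM values moved no median, over all members or by family, by more than 0.1, although the Slc3 median, close to 0, went from 0.00 to -0.01. It changed the sign of 2 of 37 members, Slc38a7 and Slc38a10, neither of them called, and moved single ratios by at most 0.381 (Slc7a13). No called member changed direction by it or by implied reads. No pool could be left out, and the planned test on counts per pool could not be run, because the table combines the pools. No paired analysis was possible because the columns carry no replicates. Counting error limits members under about log2 RPKM 0; error between mice is unknown.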
